A study of Mus musculus with 2 samples.

Results

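The proteasome genes described here are the mouse genes for the subunits, activators, inhibitor and assembly factors of the proteasome whose symbols run from Psma to Psmg followed by a digit. Probes on 2 Agilent arrays were chosen by that symbol, and Psmb8, Psmb9 and Psmb10, which encode the catalytic subunits of the immunoproteasome, were kept apart. The rule gave 46 genes with 58 probes, of 23602 named genes on the arrays. Of the 46 genes, 44 had a probe well above background and were measured, among 15419 genes measured in all. Psmb11, the thymus beta subunit, and Psma8, the testis alpha subunit, had no probe well above background on either array, so they have no difference. Psmc3ip, whose symbol matches the rule, encodes a recombination protein that binds an ATPase subunit and is not itself part of the proteasome. It is kept in the counts and described apart.

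Both arrays came from mouse primary hepatocytes, liver parenchymal cells taken into culture. They were kept in DMEM with 10% fetal bovine serum and given 50 pmol of a Stealth siRNA with a lipid transfection reagent. The control siRNA array and the G0s2 siRNA array differ by label only in the siRNA, and RNA was taken after 24 hours. The product of G0s2 inhibits a triglyceride lipase, and the series asked what its knockdown does to gene expression. With a single array for each siRNA, no p-value was computed and the differences have no replicate check. The strain, sex and age of the mice, and whether animals or wells were pooled, are not given in the sources used here.

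The proteasome degrades proteins tagged with ubiquitin. Its 20S core is a barrel of alpha and beta rings, and the beta ring carries the proteolytic sites. The 19S regulatory particle caps the core, with a base of ATPases that unfold the substrate and a lid that removes ubiquitin. Other caps, the PA28 and PA200 activators, open the core without the 19S particle, and dedicated chaperones assemble the rings. In cells whose proteasomes are impaired, the transcription factor encoded by Nfe2l1 raises the subunit genes together.

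Levels are log2 signals relative to the 75th percentile of signal on the same array, and differences are the level with G0s2 siRNA minus the level with control siRNA. That percentile was a signal of 418 for control siRNA and 728 for G0s2 siRNA, and 54.1% and 58.2% of probes were well above background. The error after ± is the scanner's own, propagated to the difference. It was 0.20 for 43 of the measured proteasome genes, because at their signals it is a fixed proportion of the signal, and it does not cover how cultures, extracts or labellings vary. G0s2 itself was at -0.13 with control siRNA and -2.83 with G0s2 siRNA, a difference of -2.70 ± 0.21, which goes with the labels. All 10 hepatocyte markers listed were well above background on at least 1 array, with a median difference of 0.38. Alb was at 8.48 and 8.78, and Cps1, with the largest difference of the 10, at 0.12 and 3.08. As multiples of the 75th percentile signal they summed to 1538 and 1824. For the 5 measured cholangiocyte markers, all below 0 with a median difference of -0.94, the sums were 7.66 and 4.28. For endothelial and macrophage markers the sum and the median went opposite ways, because 1 bright probe carries the lower sum. The 6 endothelial markers summed to 9.52 and 7.19 through Kdr, at -0.51 with its brightest probe and 1.27 with its other, while 2 of 6 lay below 0 and the median was 0.83. The 7 macrophage markers summed to 13.4 and 12.2 through Mpeg1, at -1.18, while 3 of 7 lay below 0 and the median was 0.14. Sum and median went the same way for the 3 measured stellate markers, at 0.21 and 0.26 with a median of 0.29. They also did for the 2 measured lymphocyte and neutrophil markers, at 2.81 and 1.82 with a median of -0.54. Not well above background on either array were the stellate markers Des, Pdgfrb and Lrat, the cholangiocyte marker Epcam and the leukocyte markers Ptprc and S100a8. The part of these cells in the proteasome values was not tested, and in RNA from whole cultures fewer cells of a type and less RNA per cell cannot be told apart.

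Of the 44 measured proteasome genes, 1 differed by 2-fold or more between the arrays, Psma5. None of the 44 reached 2-fold higher with G0s2 siRNA, where 4.81% of all genes were, and 1 of 44 reached 2-fold lower, as did 5.46% of all genes. Among 44 genes such counts are too small to be set apart from the shares of all genes. The median difference was -0.22 over the 44 genes and -0.03 over all genes. The quartiles of the proteasome genes were -0.34 and -0.00, against -0.37 and 0.28 for all genes. The proteasome genes were also brighter, with a median level over both arrays of 4.15 against -0.04 for all genes. Whether brightness bears on these shares and quartiles was not tested. In total 33 of 44 lay below 0, where 52.1% of all genes did. With spike-in centring 1 of 44 lay below 0, so each direction given here is relative to the array's 75th percentile. Under normexp, another background correction, the median was -0.09 for the proteasome genes and for all genes alike, and 25 of 44 lay below 0.

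**Figure D1:**
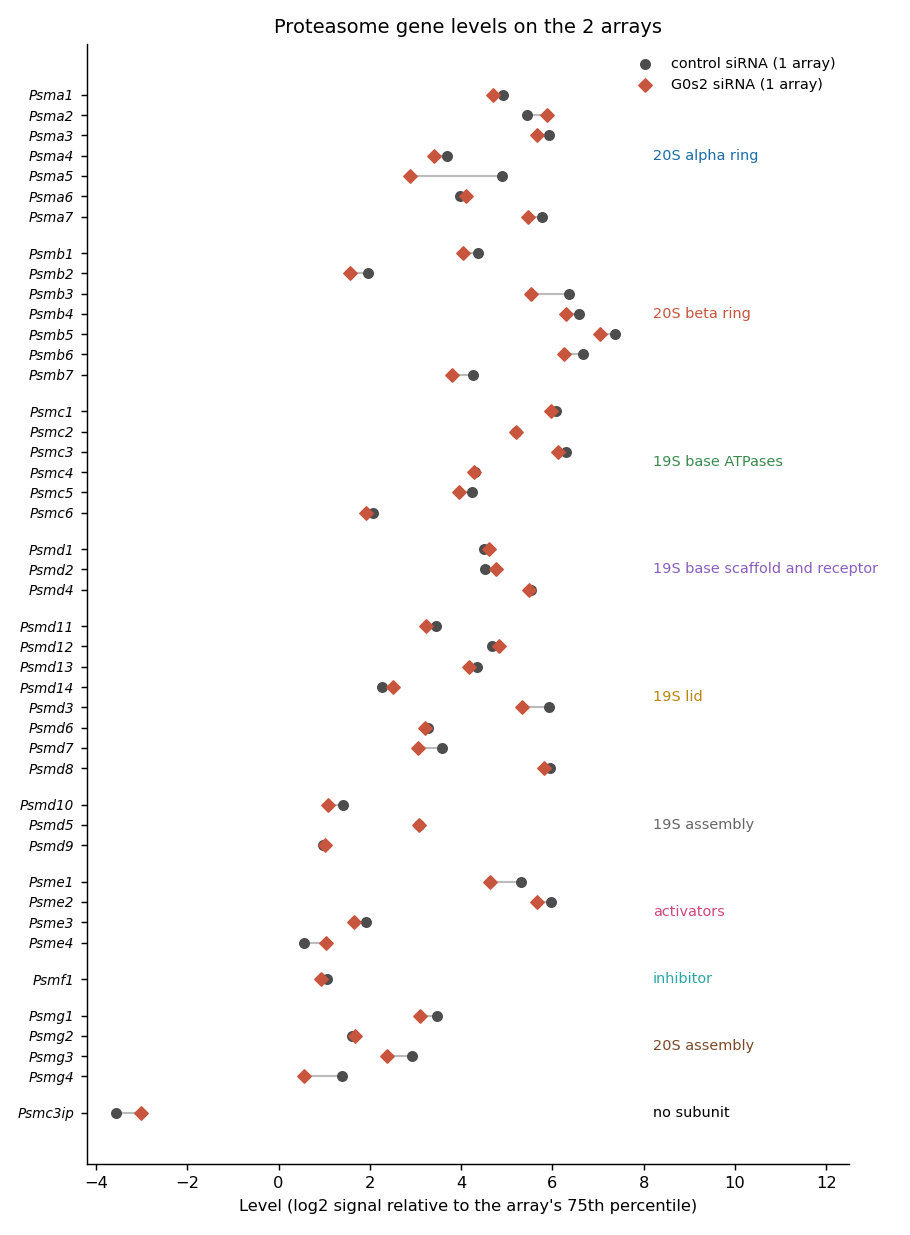
Level of each measured proteasome gene on the control siRNA array (dark circles) and on the G0s2 siRNA array (red diamonds), in log2 signal relative to the array's 75th percentile, with genes grouped by their place in the complex. The widest gap is that of Psma5, at 4.91 and 2.88. Levels of different genes come from different probes and are not comparable with each other.

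Counts by smaller thresholds were nearer to those of all genes on the lower side than on the higher side. At least 1.5-fold lower were 5 of 44, Psma5, Psmg4, Psmb3, Psme1 and Psmd3, where 14.6% of all genes were. None of the 44 was at least 1.5-fold higher, where 12.4% of all genes were. Psmd3, at -0.59, lay just inside that rule, while Psmg3 and Psmd7, both at -0.54, lay just outside. A difference of more than 2 times the scanner error was reached downward by 9 genes, the same 5 with Psmb6, Psmb7, Psmd7 and Psmg3, where 19.2% of all genes did so. Upward it was reached by 3, Psma2, Psme4 and Psmc3ip, where 15.6% of all genes did so.

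**Figure D2:**
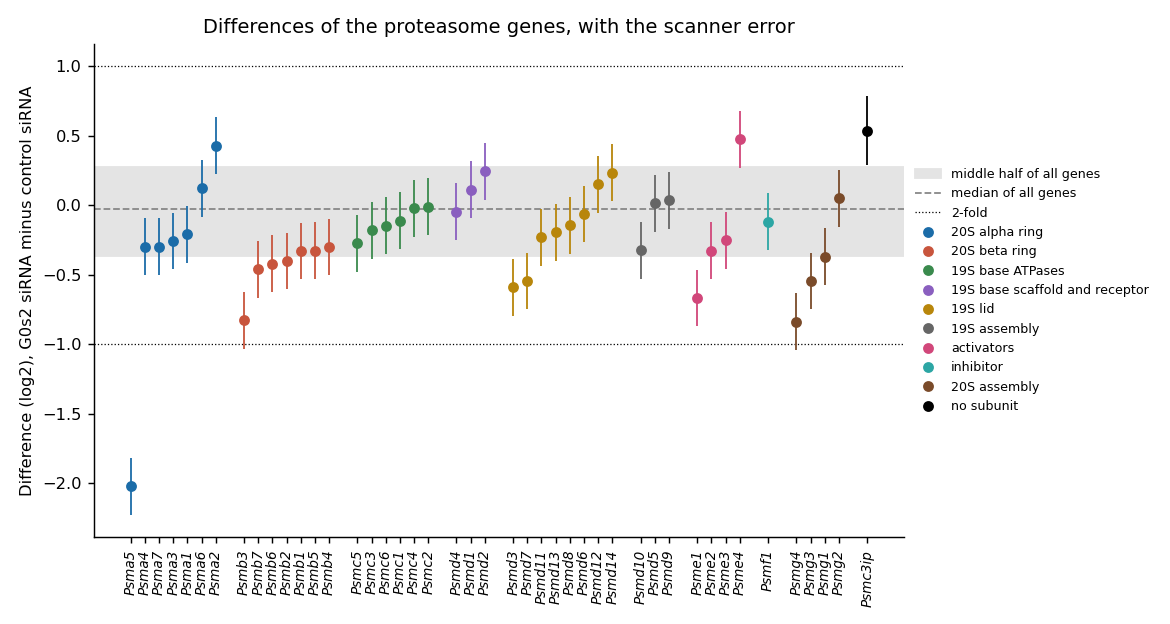
Difference of each measured proteasome gene in log2 units, G0s2 siRNA minus control siRNA, with bars for the scanner error, coloured by class. The grey band runs between the quartiles of all genes (-0.37 to 0.28), and Psma5 at -2.02 is the only proteasome gene past a 2-fold line.

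In the alpha ring, which gates the entry to the core, the median of 7 measured genes was -0.26. Psma5, which encodes subunit alpha 5, was at 4.91 with control siRNA and 2.88 with G0s2 siRNA. Its difference was -2.02 ± 0.20, or 4.06-fold lower, and both signals were well above background. The other 6 alpha genes lay between -0.30 and 0.43, so Psma5 stood apart from the ring it belongs to. Psma5 has 1 probe, A_55_P2176345 for NM_011967, with 1 spot per array, so no other spot bears on its value. On mm9 it maps to the plus strand of chromosome 3, 108082777 to 108082836, and it starts at position 1123 of the transcript. The first 30 of its 60 bases are shown because the largest difference of the group rests on this oligo alone.
Psma5 probe: gcccttagactttatttccagctcttatgt
A pseudogene, Psma5-ps, is listed on chromosome 10, and whether its RNA binds the probe was not tested. Across the 8 alternatives other than spike-in centring that give it a value, the difference of Psma5 ranged from -2.02 to -1.87, and with spike-in centring it was -0.62.

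Of the other alpha genes, Psma2 had the highest difference, with 5.45 with control siRNA and 5.88 with G0s2 siRNA, or 0.43 ± 0.20. Psma6 differed by 0.12. Psma4 and Psma7 were both at -0.30, Psma3 at -0.26 and Psma1 at -0.21. These 4 lay within 0.10 of each other, less than the scanner error. A second probe of Psma4 gave -0.28.

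The beta ring genes were lower by similar amounts. All 7 measured members were below 0, with a median of -0.40 and a range of -0.83 to -0.30. All 7 were also below 0 under normexp, with a median of -0.28, and once the probe position trend was taken out, also at -0.28, whereas with spike-in centring all 7 were above 0. Psmb3, a structural subunit, had the lowest value, at 6.36 with control siRNA and 5.53 with G0s2 siRNA, a difference of -0.83 ± 0.20. Its probe maps to the plus strand of chromosome 11, 97574748 to 97574807 on mm9. It starts with these 30 bases, shown because Psmb3 had the lowest difference of the beta ring.
Psmb3 probe: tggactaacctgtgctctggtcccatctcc
The other 6 beta genes lay between -0.46 and -0.30.

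The catalytic beta genes were close to each other. Psmb5, which encodes the chymotrypsin-like subunit, was at 7.38 and 7.05 on the control and G0s2 siRNA arrays, a difference of -0.33, and its second probe gave -0.57. Psmb6, for the caspase-like subunit, was at 6.67 and 6.25, a difference of -0.42. Psmb7, for the trypsin-like subunit, was at 4.26 and 3.80, a difference of -0.46 that became -0.23 under normexp. These 3 differ among themselves by less than the scanner error. Pseudogenes of Psmb5, Psmb6 and Psmb7 are listed in the gene table, so the values of these genes are uncertain to the extent that copies bind the probes. The immunoproteasome genes that replace these subunits had larger differences, with Psmb8, which takes the place of Psmb5, at -1.11, Psmb9, for Psmb6, at -2.06 and Psmb10, for Psmb7, at -1.28. The structural genes Psmb1, Psmb2 and Psmb4 differed by -0.33, -0.40 and -0.30.

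Over both rings, 12 of 14 core genes lay below 0, with a median of -0.31. A count of 12 of 14 lay below the median of all genes under every alternative that measured all 14, spike-in centring included. In the 19S particle, 13 of 17 subunit genes lay below 0, with a median of -0.11. This count changed with the processing, to 9 of 17 under quantile normalization and with the position trend taken out, and 6 of 17 under normexp, where the median was 0.04. The difference between core and 19S genes was not tested, since genes are not replicates.

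**Figure D3:**
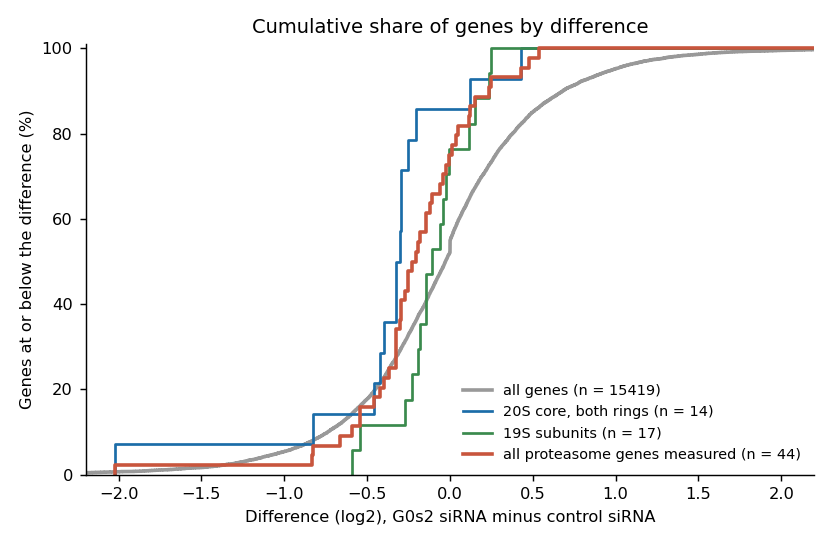
Cumulative share of genes, in percent, at or below each difference (log2, G0s2 siRNA minus control siRNA), for all 15419 genes, the 44 proteasome genes, the 14 core genes and the 17 genes of 19S subunits. The proteasome curves are steeper than that of all genes, and the core curve has its median at -0.31 against -0.11 for the 19S curve. The step of the all-gene curve at 0 comes from dim genes whose bound was set to 0.

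The 6 ATPase genes of the 19S base, whose products form the unfolding ring, had the narrowest range of the classes with over 4 genes. They lay between -0.27, for Psmc5, and -0.01, for Psmc2, with a median of -0.13. Psmc5 was at 4.23 with control siRNA and 3.96 with G0s2 siRNA. Psmc2 was at 5.21 and 5.20. Psmc3, Psmc6, Psmc1 and Psmc4 differed by -0.18, -0.15, -0.11 and -0.02. Each of the 6 differences was within 2 times the scanner error. Under normexp 3 of the 6 lay below 0.

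The scaffold and receptor genes of the base were near or above 0. Psmd2, for a scaffold subunit, was at 4.52 and 4.76, a difference of 0.25 that became 0.46 under normexp, and Psmd1, for the other scaffold, differed by 0.11. Psmd4, for a ubiquitin receptor, was at 5.53 and 5.48, a difference of -0.04. In the lid, 6 of 8 genes lay below 0 with a median of -0.17, against 3 of 8 under normexp. Psmd3 was lowest, at 5.92 with control siRNA and 5.34 with G0s2 siRNA, or -0.59 ± 0.20. Psmd7, whose product pairs with the deubiquitinase of the lid, was at 3.59 and 3.05, or -0.54. Psmd14, which encodes that deubiquitinase, was highest at 2.26 and 2.50, a difference of 0.24. Psmd12 differed by 0.15 and its second probe by 0.27. Psmd11, Psmd13, Psmd8 and Psmd6 lay between -0.23 and -0.06.

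The 3 chaperone genes of the 19S base lay between -0.32 and 0.04 with their brightest probes. Psmd5 and Psmd9 were at 0.02 and 0.04, although a second Psmd9 probe gave 0.38. Psmd10, which encodes gankyrin, was at 1.42 and 1.09, a difference of -0.32, with a second probe at -0.60. Genes for the chaperones of the 20S core were lower except for Psmg2. Psmg4 was at 1.40 with control siRNA and 0.56 with G0s2 siRNA, a difference of -0.84 ± 0.20, which is not told apart from that of Psmb3 by the scanner error. Psmg3, the partner of Psmg4 in its chaperone pair, was at 2.92 and 2.38, or -0.54 ± 0.20. Psmg1 differed by -0.37, and by -0.20 with its second probe. Psmg2, which also acts as a pair with Psmg1, differed by 0.05. The Psmg4 probe maps to the plus strand of chromosome 13, 34269918 to 34269977 on mm9, and begins as follows, shown because Psmg4 has no other probe.
Psmg4 probe: ctcgtagaaaacaggattaaggaagaaatg
Under normexp the difference of Psmg4 was -0.62.

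Activator genes went in both directions. Psme1 and Psme2 encode the subunits of PA28, an activator that interferon induces together with the immunoproteasome. Psme1 was printed as 10 spots on each array, which gives the only spread within an array for a proteasome gene. The spots lay between 5.24 and 5.34 on the control array, with a median of 5.31, and between 4.54 and 4.73 on the G0s2 siRNA array, with a median of 4.64. The sets of spots did not overlap. Their SDs were 0.037 and 0.051, and the difference of means was -0.67, or 1.59-fold lower. That SD covers printing, hybridisation and scanning within an array only, and 10 spots are not 10 samples. The probe maps to the plus strand of chromosome 14, 56200194 to 56200253 on mm9, and begins with these bases, shown as the best measured oligo of the group.
Psme1 probe: agaaaccaagggaatgatctattgagcccc

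Psme2 was at 5.98 and 5.66, a difference of -0.33, and a second probe gave -0.13, while another was not well above background on either array. A near copy, Psme2b on chromosome 11, makes the Psme2 value uncertain. Psme1 and Psme2 lie next but 1 to each other on chromosome 14 in the gene table, with 1 gene between them. Of 10 type I interferon response genes listed, 7 were 2-fold or more lower, where 5.46% of all genes were. Among the 7 were Ifit3 at -3.55 and Isg15 at -1.69, while Irf7 was at 0.01 and Usp18 was higher at 1.05. The median of the 10 was -1.59, and their summed signal was 207 and 75.3 times the 75th percentile. Their part in the PA28 values was not tested. Psme3, for the nuclear PA28 gamma activator, was at 1.91 and 1.65, a difference of -0.25. Psmf1, for the inhibitor PI31, was at 1.06 and 0.94, a difference of -0.12.

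Psme4, which encodes the PA200 activator, gave opposite signs with its 2 probes. The brighter one, at position 4962 of the transcript, was at 0.56 with control siRNA and 1.03 with G0s2 siRNA, a difference of 0.48. The other, at position 1428, was at 0.05 and -0.28, a difference of -0.33. The mean over both was 0.07. Both lie on the plus strand of chromosome 11, from 30756055 to 30756114 and from 30710953 to 30711012 of mm9. Their 60 bases are shown because the direction of Psme4 depends on which is read.
Psme4 probe at 4962: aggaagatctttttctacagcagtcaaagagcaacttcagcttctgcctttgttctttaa
Psme4 probe at 1428: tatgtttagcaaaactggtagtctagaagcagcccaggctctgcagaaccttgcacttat
Psmc3ip, the matching name that is no subunit, was dim, at -3.56 and -3.02, a difference of 0.54 ± 0.25, and at 0.07 under normexp.

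Repeat probes showed how far a difference depended on the probe read. They share the same RNA and arrays, so they do not cover how cultures, extracts or labellings vary. Of the 46 genes 11 had a second probe that was measured, and the sign was the same in 10 of 11, with Psme4 the exception. The difference moved between the probes of a gene by a median of 0.17, from 0.00 for Psmc2 to 0.81 for Psme4. The Psmc2 probes share 50 of their 60 bases, so they are close to 1 probe, at -0.01 with either. The other 35 genes have 1 probe each. For 10 of the 44 measured genes the brightest probe spans more genomic bases on mm9 than its length, so it crosses at least 1 intron, as the Psmb7 probe does from 38468966 to 38489385 on chromosome 2. Other exon and UTR annotation on mm9 was not used here.

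**Figure D4:**
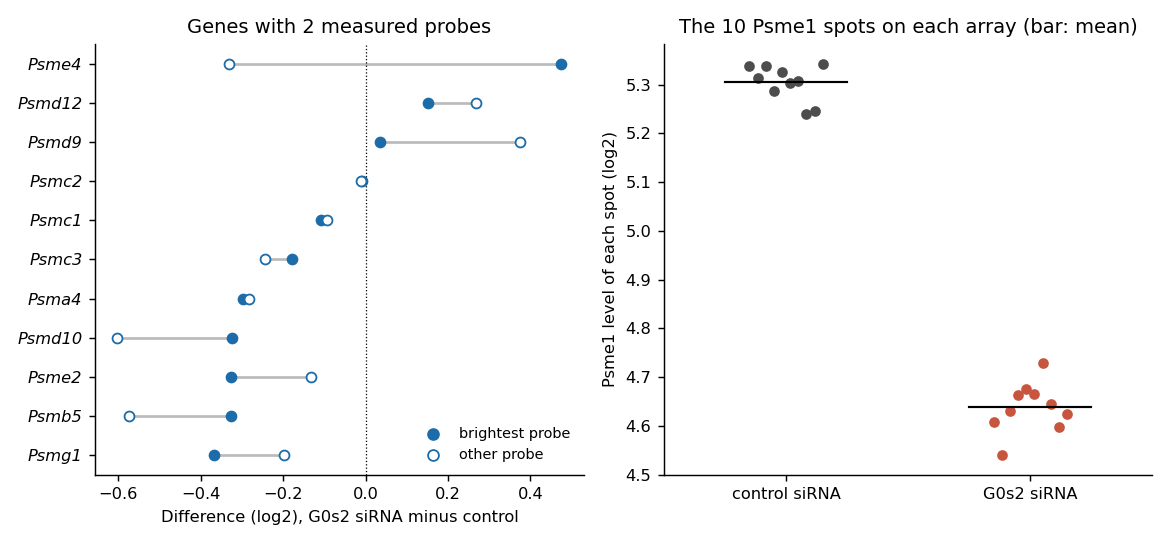
Left, differences (log2, G0s2 siRNA minus control siRNA) of the brightest probe (filled) and the other measured probe (open) of the 11 genes with both; Psme4, at 0.48 and -0.33, is the only gene whose probes lie on opposite sides of 0. Right, the level of each of the 10 Psme1 spots on each array, with the mean as a bar.

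Probe position went with the difference. The brightest probes of the proteasome genes lay nearer to the start of the transcript, at a median position of 896.5 against 1782 for all genes. Position is counted in bases from the start, and transcript length was not taken into account, so probe placement and length cannot be told apart here. Over all genes the median difference was -0.13 for genes with probes from position 1 to 813 and 0.04 from position 3350 onward, 2 of 5 bins of near equal size. Of the 44 proteasome genes 20 lay in the bin nearest the start, with a median of -0.31, and 16 in the next, with a median of -0.20 against -0.06 for all genes there. With the trend taken out the median of the proteasome genes was -0.16, and 28 of 44 lay below 0. Median GC content of the probes was 43.3% for proteasome genes and for all genes.

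Promoters, 250 bases before to 50 after each gene's start from RefSeq on GRCm38.p6, were matched by symbol for 38 of the 46 genes. The core of the antioxidant response element, TGACNNNGC, through which Nfe2l1 and Nfe2l2 act, was searched on both strands. It was found in 6 of 38 proteasome promoters, or 15.8%, and in 14.0% of all genes' promoters. The 6 were those of Psmb5, Psmb6, Psmc6, Psmd9, Psmd12 and Psme4, and their median difference was -0.06 against -0.21 for the 31 measured genes with a promoter that lacks it. The Psmb5 promoter is given as the example, on the minus strand at chr14:54617946-54618245, with the match in capitals at position -47 from the gene's start.
Psmb5 promoter: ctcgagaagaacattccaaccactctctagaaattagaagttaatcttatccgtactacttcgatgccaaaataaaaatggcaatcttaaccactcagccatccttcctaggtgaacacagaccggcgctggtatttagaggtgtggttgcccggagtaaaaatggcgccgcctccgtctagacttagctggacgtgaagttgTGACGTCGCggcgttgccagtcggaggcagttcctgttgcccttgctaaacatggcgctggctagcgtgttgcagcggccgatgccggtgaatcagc
The CCAAT box, CCAAT on either strand, was in 14 of 38, or 36.8%, and in 41.1% of all. Nfe2l1 itself differed by -0.21 and Nfe2l2 by 0.10.

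A further motif was searched after the values had been seen, because Psme1 is a known interferon target. The interferon-stimulated response element was sought on both strands as GAAA, any 2 bases and GAAA again. They were in 5 of 38 proteasome promoters, or 13.2%, and in 4.0% of all. The 5 genes were Psmg4 at -0.84, Psmb3 at -0.83, Psme1 at -0.67, Psmd4 at -0.04 and Psmd9 at 0.04. So 3 of them are among the 5 proteasome genes at least 1.5-fold lower, and Psma5, whose promoter was matched, does not have these letters, while no promoter was matched for Psmd3. The promoters of Psmb8, Psmb9 and Psmb10, whose differences were larger, were searched too and do not have these letters. Neither do the 2 promoters matched for Psme2, the other PA28 subunit gene, at -0.33. Among all measured genes with a promoter, 22.5% of the 417 that hold the letters were at least 1.5-fold lower against 14.6% of the 10924 that do not. Fewer were at least 1.5-fold higher, 10.8% against 12.3%. The motif was picked with results known, so these shares are a description and were not tested, and a match does not show binding. The promoters of the 3 lower genes are shown with the match in capitals, all on the plus strand, at chr13:34162714-34163013 for Psmg4, chr11:97703184-97703483 for Psmb3 and chr14:55578244-55578543 for Psme1.
Psmg4 promoter: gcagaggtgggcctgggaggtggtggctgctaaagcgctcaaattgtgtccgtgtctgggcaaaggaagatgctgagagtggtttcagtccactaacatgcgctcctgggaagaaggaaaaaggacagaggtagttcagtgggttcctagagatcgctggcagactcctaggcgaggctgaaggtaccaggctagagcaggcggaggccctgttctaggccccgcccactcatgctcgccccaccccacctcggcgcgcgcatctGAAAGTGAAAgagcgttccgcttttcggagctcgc
Psmb3 promoter: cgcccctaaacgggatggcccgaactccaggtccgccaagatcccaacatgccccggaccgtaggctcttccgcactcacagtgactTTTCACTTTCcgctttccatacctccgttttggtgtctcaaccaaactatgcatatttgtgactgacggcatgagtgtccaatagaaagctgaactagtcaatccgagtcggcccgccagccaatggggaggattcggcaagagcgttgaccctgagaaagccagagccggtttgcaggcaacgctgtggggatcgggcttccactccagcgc
Psme1 promoter: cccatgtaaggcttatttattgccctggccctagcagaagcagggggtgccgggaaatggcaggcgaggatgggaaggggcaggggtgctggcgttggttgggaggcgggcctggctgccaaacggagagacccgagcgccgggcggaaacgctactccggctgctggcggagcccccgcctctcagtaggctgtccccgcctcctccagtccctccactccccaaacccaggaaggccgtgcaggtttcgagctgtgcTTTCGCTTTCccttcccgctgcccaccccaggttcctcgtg
The match begins at position 16 from the gene's start in Psmg4, -163 in Psmb3 and 10 in Psme1, and in Psmb3 and Psme1 it is on the opposite strand.

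Other genes of the ubiquitin and proteasome system were taken from a list of 32, of which 30 were measured. Of these 30, 1 was more than 2-fold higher, Rad23b, where 4.81% of all genes were at least 2-fold higher. Also 1 was more than 2-fold lower, Akirin2, where 5.46% of all genes were at least 2-fold lower. The median was -0.14. The 7 measured subunit and assembly genes outside the name rule all lay below 0 with their brightest probes, where 52.1% of all genes did. The median of the 7 was -0.42. Akirin2, whose product helps bring proteasomes into the nucleus, was lowest, at 3.33 with control siRNA and 1.85 with G0s2 siRNA, a difference of -1.48 ± 0.20 from 1 spot per array. Pomp, the maturation factor of the core, differed by -0.51 but by 0.15 with its other probe. Usp14, a deubiquitinase bound to the base, differed by -0.42 but by 0.20 with its other probe. Adrm1, a ubiquitin receptor, differed by -0.20 and Sem1, a small lid subunit, by -0.26.

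Genes that supply substrates to the proteasome were mixed. The polyubiquitin gene Ubb differed by 0.01, with another probe at 0.27. The activating enzyme gene Uba1 differed by 0.04, with another probe at 0.40. The shuttle gene Rad23b was at 1.73 with control siRNA and 2.83 with G0s2 siRNA, or 2.14-fold higher, and its other probe gave a difference of 0.93. Of the 6 genes for the unfoldase p97 and its cofactors, 4 lay below 0, with a median of -0.33. They ran from Faf2 at -0.75, with another probe at -0.25, to Faf1 at 0.66, with another probe at 0.08, and Vcp, for p97 itself, was at -0.57. Ufd1 was at -0.09, but at 0.93 with its other probe. With spike-in centring 23 of the 30 were at least 2-fold higher and 0 lower, where 77.1% of all genes were higher, so that count is the background's.

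**Figure D5:**
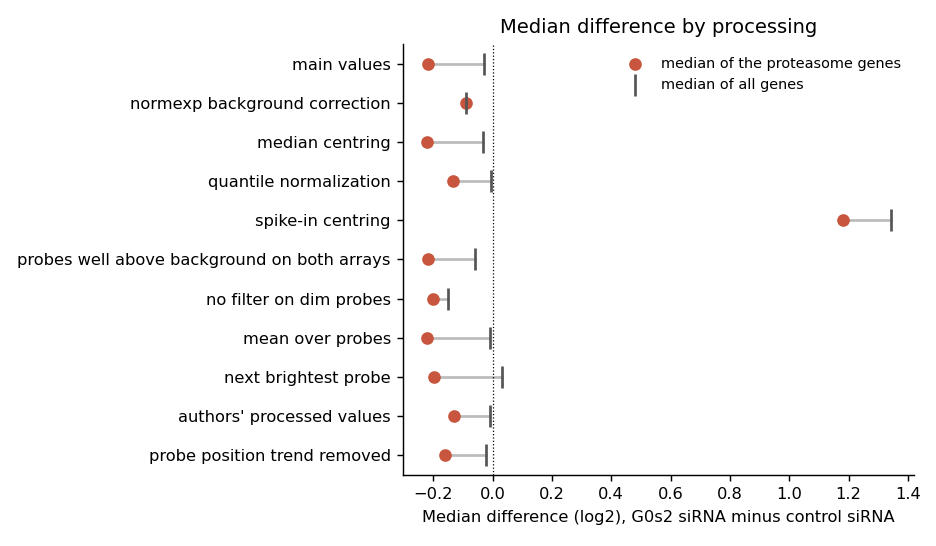
Median difference (log2, G0s2 siRNA minus control siRNA) of the proteasome genes (circles) and of all genes (bars) in the main values and under each other way of processing. The distance between them is 0.19 in the main values and 0.00 under normexp, and spike-in centring moves both above 1.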

How the data were processed

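RNA from 1 control siRNA and 1 G0s2 siRNA array was labelled with Cy3 from 0.5 ug, per the labels' protocols. The authors deposited spot intensity tables read with Agilent Feature Extraction 10.7.1.1, per the file headers, on mm9. Flags per spot, 0 or 1, are a further value (other) of the deposited tables. The authors' series table holds linear intensity values with the same median of 33.1 in both columns, by a method not given in the sources used here, and served as an alternative.

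The main value was log2 processed signal minus the array's 75th percentile, without control or outlier spots, averaged over spots of a probe. Each gene took the brightest of the probes that 1 or both arrays measured well above background. On a dim array the value was a bound, the lowest well-above-background signal unless the probe's own was higher, and a bound against its own direction was set to 0. All 44 proteasome genes were well above background on both arrays. Probes were named through a RefSeq table of GRCm38.p6, by accession for 26408, symbol for 3854 and synonym for 734, with 8428 unnamed. All 58 proteasome probes kept their names. Both arrays lay on 1 slide, so slide position and group cannot be told apart. The number of arrays limits the precision.

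The members, lists and tests were chosen with earlier results of these data known. Text names members at least 2-fold either way, the extremes of each class, the catalytic, activator and inhibitor genes, other members where they complete a class, and list genes by the same fold. The list genes named below that fold were chosen after their values were seen. Pairwise protein identity, which had been planned, was not analysed here. Alternatives were normexp (offset 50), median centring, quantile normalization, spike-in centring, other filters and probes, the authors' values and a correction for probe position by lowess (span 0.3). Calculations used Python 3.11.15, numpy 2.4.6, pandas 2.3.3, scipy 1.17.1, statsmodels 0.14.6, R 4.3.3 and limma 3.58.1, and were tested on simulated data.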

Additional observations from a re-analysis of the deposited data

How the results depend on the processing

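No paired analysis was possible because each group has 1 array. Spike-in centring moved all values up, because the unscaled log2 signals of the 8 spike-in probes differed by -0.97 to -0.02, with a mean of -0.60, while the 75th percentile signal was 418 for control siRNA and 728 for G0s2 siRNA. Its median was 1.18 over the proteasome genes and 1.34 over all genes, and 34 of the 44 genes were then 2-fold or more higher and 0 lower, where 77.1% of all genes were higher. Class medians became 1.14 for the alpha ring, 1.00 for the beta ring, 1.27 for the ATPases, 1.51 for base scaffold and receptor, 1.23 for the lid, 1.41 for 19S assembly, 1.11 for activators, 1.28 for the inhibitor, 0.94 for 20S assembly and 1.94 for Psmc3ip. Of the other ubiquitin and proteasome genes 23 of 30 were then at least 2-fold higher and 0 lower, against the same 77.1%. Why the spike-in signals differ was not tested. Normexp moved Psmc3ip to 0.0735, Psmb7 to -0.23, Psmd2 to 0.46 and Psmg4 to -0.62, and the cause was not tested. With the next brightest probe, which exists for 11 genes and not for Psma5, 0 were 2-fold lower. The median was then 0.27 for the lid and -0.20 for 20S assembly, each from 1 gene. Without a filter on dim probes 1 gene, Psma8, was at least 2-fold higher, from signals not well above background. A rule of 1.5-fold gave 5 lower, and a rule of over 2 times the scanner error gave 9 lower and 3 higher. Normexp also moved the median over the proteasome genes from -0.22 to -0.09, and its distance from the median of all genes from -0.19 to 0.00. Signal over background limits Psmc3ip, Psma8 and Psmb11.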
